A study of Mus musculus with 12 samples.

Results

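Levels of 35 cell cycle and DNA replication genes were described in the liver of sedentary and exercised mice. The genes were chosen by symbol as a functional set, and all 35 were found among the 16821 genes listed. The rule itself uses no measured value, but the set was chosen with earlier results of these data known. Liver RNA was sequenced from 12 adult male C57BL/6J mice, 6 of a sedentary control group (Con) and 6 of a chronic exercise group (Exe), with a library for each mouse, and no mouse carried an engineered allele. Exe mice ran on a motor-driven treadmill for 60 min a day, 5 days a week, over 6 weeks, and Con mice stayed in the same room and did not run. In both groups the liver was flushed with saline, and livers of Exe mice were taken within a day of the last run. The comparison asks how repeated running changes the liver transcriptome.

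Cells that divide pass from the G1 phase through DNA synthesis (S phase) to mitosis. In G1, cyclin D and cyclin E kinases release E2F factors, which switch on genes for the replicative helicase (the Mcm proteins) and for making nucleotides. Genes needed later, for mitosis, are held down in resting cells by the DREAM complex, which binds the cell cycle genes homology region (CHR), and are switched on by B-Myb and FoxM1, often together with NF-Y at a CCAAT box. Hepatocytes of an adult liver are nearly all at rest, and resident macrophages (Kupffer cells) and other non-parenchymal cells can renew themselves by division.

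Promoters of genes from different roles are shown, and any relation of their sequences to the levels in the mice was not tested. RefSeq sequences of GRCm38.p6 were searched over 300 bases, 250 before and 50 from the annotated start. Of the 35 genes, 28 had a promoter in this table, and Aurkb, Mcm4, Tpx2, Ccnd1, Ccna2, Kif20a and Ccne2 had no entry. The letters searched, on both strands, were TTTGGCGC, TTTCGCGC and GGCGGGAA for E2F, TTTGAA and TTCGAA for the CHR, and CCAAT for NF-Y. Matches may overlap: TTTCGCGC on a strand can share bases with TTTGGCGC on the other. The capitals below mark every match, a run of capitals can join matches that overlap or touch, and a match on the other strand appears as its reverse complement. Mcm5 (chr8:75109259-75109558, plus strand) and Mcm6 (chr1:128359656-128359955, minus strand) encode helicase subunits, Cdc20 (chr4:118437294-118437593, minus strand) and Ube2c (chr2:164769679-164769978, plus strand) encode parts of the machinery that ends mitosis, and Ccnb1 (chr13:100786437-100786736, minus strand) encodes cyclin B1.
Mcm5: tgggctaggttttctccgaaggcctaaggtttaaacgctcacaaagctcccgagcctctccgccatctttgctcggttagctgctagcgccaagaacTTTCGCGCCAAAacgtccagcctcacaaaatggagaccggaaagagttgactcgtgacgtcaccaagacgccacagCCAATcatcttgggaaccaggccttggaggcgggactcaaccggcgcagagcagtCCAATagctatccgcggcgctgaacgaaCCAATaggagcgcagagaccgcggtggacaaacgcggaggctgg
Mcm6: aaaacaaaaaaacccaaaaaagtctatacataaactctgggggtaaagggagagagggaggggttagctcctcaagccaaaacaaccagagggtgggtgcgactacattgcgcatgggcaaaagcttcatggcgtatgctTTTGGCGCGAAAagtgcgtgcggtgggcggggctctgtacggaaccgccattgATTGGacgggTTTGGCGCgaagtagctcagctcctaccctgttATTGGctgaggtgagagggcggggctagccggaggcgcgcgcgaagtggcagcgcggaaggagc
Cdc20: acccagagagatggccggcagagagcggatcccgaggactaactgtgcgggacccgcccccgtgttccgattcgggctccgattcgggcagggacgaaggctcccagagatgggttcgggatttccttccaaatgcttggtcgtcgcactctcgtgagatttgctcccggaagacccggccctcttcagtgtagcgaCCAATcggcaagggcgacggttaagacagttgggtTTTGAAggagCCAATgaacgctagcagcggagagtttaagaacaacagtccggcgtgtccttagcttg
Ube2c: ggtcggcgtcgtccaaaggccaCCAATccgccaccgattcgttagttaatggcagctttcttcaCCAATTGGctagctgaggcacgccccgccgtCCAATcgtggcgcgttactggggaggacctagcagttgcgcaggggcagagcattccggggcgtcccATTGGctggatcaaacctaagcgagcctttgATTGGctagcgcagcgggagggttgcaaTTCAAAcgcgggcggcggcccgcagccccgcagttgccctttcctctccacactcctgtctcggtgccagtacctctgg
Ccnb1: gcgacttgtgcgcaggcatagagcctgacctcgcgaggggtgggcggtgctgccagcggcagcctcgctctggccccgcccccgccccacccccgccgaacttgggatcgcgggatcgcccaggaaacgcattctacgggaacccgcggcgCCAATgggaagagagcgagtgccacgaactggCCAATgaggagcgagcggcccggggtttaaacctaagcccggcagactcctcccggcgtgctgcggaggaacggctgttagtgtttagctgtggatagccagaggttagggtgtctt

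In Mcm5 the run TTTCGCGCCAAA joins 2 E2F matches, the first of them starting at base -153 relative to the start. Mcm6 held 3 E2F matches, at -110, -106 and -47. Cdc20 held a CHR match at -18 between CCAAT matches at -53 and -8, and Ube2c held a CHR match at -29. The Ccnb1 window held CCAAT matches at -99 and -67 and no match to the CHR letters. E2F letters occurred in 4 of 6 replication genes (Mcm3, Mcm5, Mcm6 and Mcm7) and in 1 of 16 mitotic genes (Cdk1), against 732 of 13212 genes in the files with a promoter (5.54%). CHR letters occurred in 12 of 16 mitotic genes, in 2 of 6 replication genes and in 17.5% of the genes in the files. CCAAT occurred in 14 of 16 mitotic genes, in all 6 replication genes with a promoter and in 42.6% of the genes in the files. Over all 32851 promoters of this length in the table the shares were 2.96%, 19.2% and 37.4%. The E2f1 window held none of these letters. It was not checked that this window lies at the main start of E2f1, and bases outside it were not searched. Nothing therefore follows for the promoter of E2f1. A match is a description of the letters and does not show that a factor binds there.

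**Figure D1:**
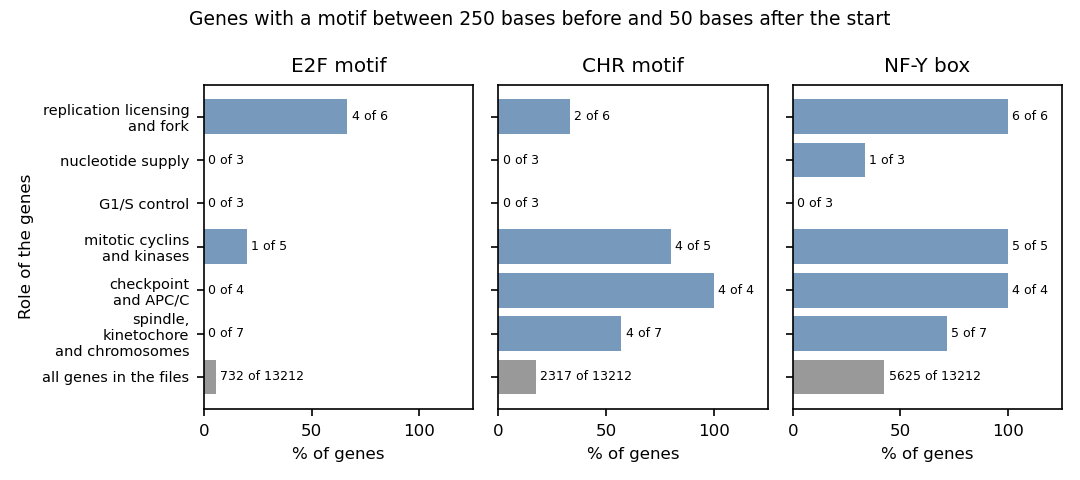
Share of genes (x axis, % of those with a promoter in the RefSeq table) that held each motif within 250 bases before to 50 bases after the start, by role (y axis). CHR letters were in 4 of 4 checkpoint genes and in 0 of 3 G1/S genes, and E2F letters in 4 of 6 replication genes. The G1/S genes include E2f1, whose window was not checked to lie at its main start.

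The authors deposited FPKM, fragments scaled to transcript length and to the mapped total, rounded to 0.01, so levels of different genes can be compared per length. Means over the 12 mice ran from 0.0375 FPKM (Cenpf) to 24.2 FPKM (Pcna), and 18 of the 35 genes had a mean under 1 FPKM. The fit across all genes used those with at least 1 FPKM in at least 6 mice, and 16 of the 35 passed: all 7 replication genes, all 3 nucleotide genes, 4 of 5 G1/S genes, Ube2c and Birc5. The other 19 were tested in a fit over all 16804 genes above 0. Fold changes are given on the log2(FPKM + 1) scale, which understates the change of low genes. The summed FPKM of all genes ran from 735200 to 820107 in the 12 mice, and the depth in reads is unknown. The 6 markers of hepatocytes were abundant in every mouse, as the tissue label gives. They summed to 51743 to 68627 FPKM in Con mice (mean 59022) and to 59983 to 75499 in Exe mice (mean 69172). The ratio of these means was 1.17, and FPKM are scaled to a total. The part of this difference in the levels of the cell cycle genes was not tested. In bulk RNA, fewer dividing cells and less RNA of these genes per cell cannot be told apart.

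Compared with Con group, 31 of the 35 genes had a lower mean log2 level in Exe group, where 46.3% of all 16804 genes were lower. The 4 that were higher were Pcna, Rrm2, Tk1 and Ccne2. The median log2 fold change of the 35 was -0.09 and the median ratio of Exe to Con means was 0.796, against 0.0025 and 1.002 over all genes above 0. None passed an adjusted p of 0.05 in limma with Benjamini-Hochberg adjustment, where 0.0% of the filtered genes and 0.00595% of all genes above 0 passed. The lowest adjusted p was 0.793 among the 16 filtered genes and 0.867 in the fit over all genes above 0. At an unadjusted p of 0.05, limma called 1 of the 16, E2f1, where 6.21% of all 10241 filtered genes were called in either direction and 1.94% lower in Exe group. In no gene did the groups separate fully, which occurred in 0.173% of all genes. Genes of the cell cycle can vary together across mice, so their shared direction is not 35 separate observations.

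**Figure D2:**
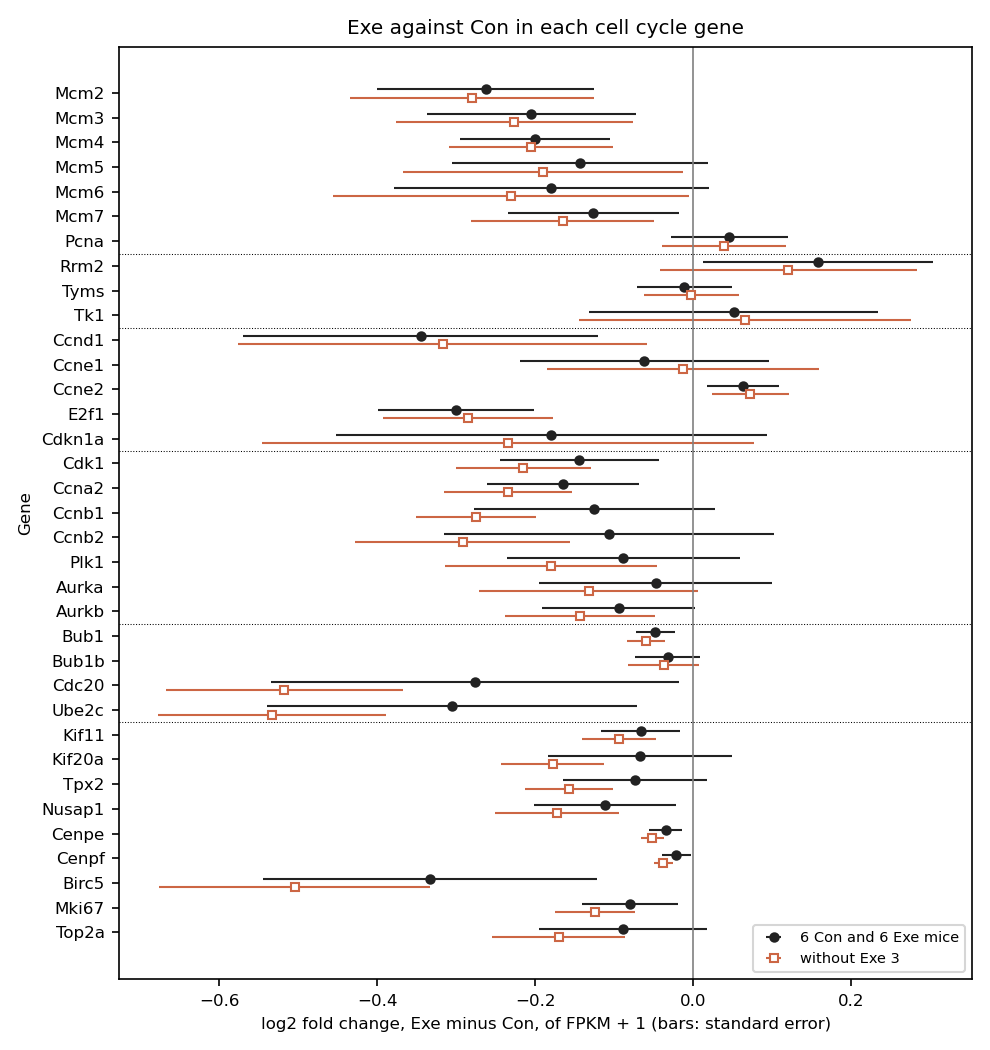
log2 fold change of Exe against Con on the FPKM + 1 scale (x axis) with its standard error for each gene (y axis), over all 12 mice (black) and without Exe 3 (orange). E2f1 lay at -0.30 in all mice, and Cdc20 moved from -0.28 to -0.52 and Ube2c from -0.31 to -0.53 without Exe 3.

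E2f1 (gene 13555), the factor that turns on S phase genes, was lower in Exe group. Con mice had 1.26 to 2.33 FPKM with a median of 1.61, and Exe mice 0.87 to 1.37 with a median of 1.17. All 6 Exe mice were below the Con median, and 4 of them were below the lowest Con mouse, but the groups overlapped. Means were 1.66 ± 0.415 and 1.15 ± 0.177 FPKM (SD, n = 6). The log2 fold change was -0.30 (SE 0.098), with an adjusted p of 0.793 in limma and p = 0.0152 in the exact two-sided permutation test, whose smallest possible p is 0.00216. By that exact test, 1.62% of all genes above 0 were lower in Exe group. Leaving out each mouse in turn kept the fold change of E2f1 between -0.34 and -0.23, the smallest being without Con 1, which had the highest value.

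The other G1/S genes varied mostly within groups. Ccnd1, cyclin D1, which carries growth signals into the cycle, ranged from 9.03 to 14.5 FPKM (median 12.6) in Con mice and from 5.24 to 16.8 (median 8.95) in Exe mice. Its coefficient of variation was 17.2% in Con and 44.8% in Exe group, and Exe 4 and Exe 5 lay high while Exe 2 and Exe 6 lay low. Its log2 fold change of -0.34 (SE 0.23) gave an exact permutation p of 0.203. Cdkn1a, which encodes the kinase inhibitor p21, ranged from 0.56 to 2.88 FPKM in Con mice (median 1.09) and from 0.38 to 3.01 in Exe mice (median 0.93), so its spread within each group was over the gap between the medians. Cdkn1a was highest in Con 2 and Exe 5. Ccne1 and Ccne2, the E cyclins that start S phase, had means of 1.29 and 0.258 FPKM in Con and 1.18 and 0.313 in Exe group, with exact permutation p-values of 0.725 and 0.225.

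**Figure D3:**
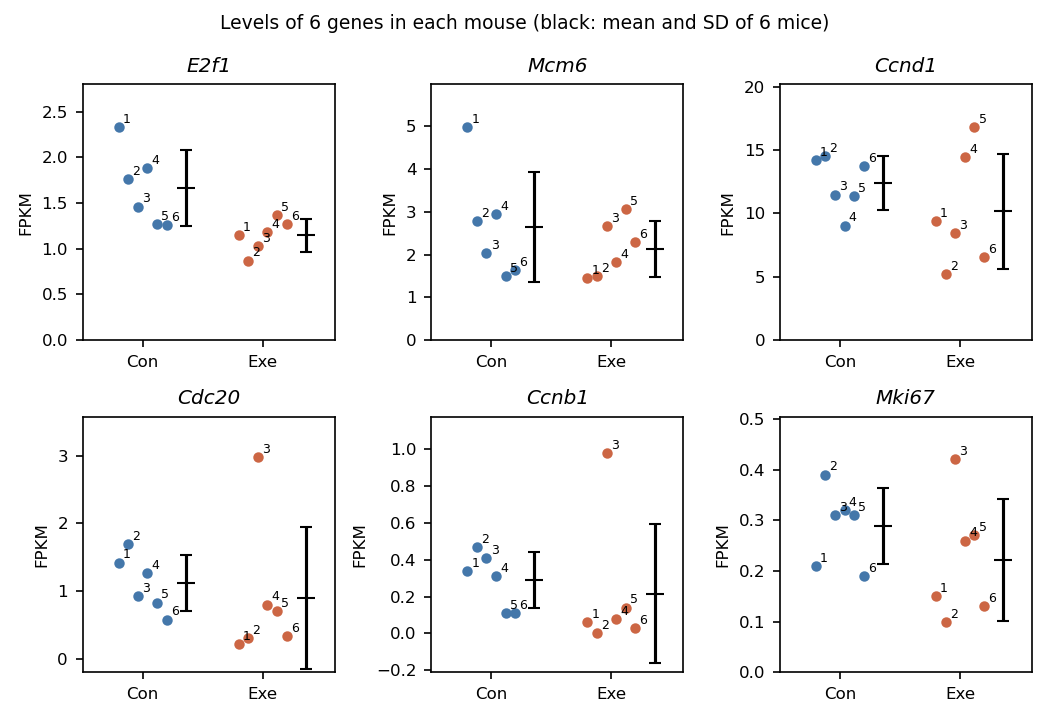
FPKM (y axis) of 6 genes in each Con (blue) and Exe (orange) mouse, numbered, with mean and SD of each group in black. All Exe mice lay below the Con median of 1.61 for E2f1, and Exe 3 reached 2.98 FPKM for Cdc20 and 0.98 for Ccnb1 while the other Exe mice stayed at or under 0.8 and 0.14.

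The 6 Mcm genes, whose proteins form the ring-shaped helicase that is loaded at origins, all had a lower mean in Exe group, and none passed the test. Mcm4 came nearest, with 1.04 to 1.95 FPKM in Con (median 1.29) and 0.72 to 1.34 in Exe mice (median 1.11). 5 of 6 Exe mice lay below the Con median. Its log2 fold change was -0.20 (SE 0.095), with an unadjusted limma p of 0.0550, an adjusted p of 0.809 and an exact permutation p of 0.0628. Mcm2 ranged from 0.98 to 2.38 FPKM in Con mice (median 1.47) and from 0.6 to 1.53 in Exe mice (median 1.07), with an exact permutation p of 0.117. The other 4 had log2 fold changes between -0.21 (Mcm3) and -0.13 (Mcm7).

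Con 1 stood above the other mice in all 6 Mcm genes. It had 4.98 FPKM of Mcm6, where the other Con mice had 1.5 to 2.95, and 2.12 FPKM of Mcm5, where they had 0.67 to 1.2. Mcm5 and Mcm6 varied together over the 12 mice, with Pearson r = 0.922 (permutation p = 0.00015, adjusted p = 0.0006) and Spearman rho = 0.839. Without Con 1 and Exe 2, the mice farthest in Mcm5, r was 0.833. Within the 6 Con mice r was 0.950 and within the 6 Exe mice 0.897 (exact permutation p = 0.0611). Con 1 was also the highest mouse in a sum of 6 acute-phase genes, at 29789 FPKM against 2444 to 17984 in the other Con mice, and the part of that state in these levels was not tested. Without Con 1 alone, the log2 fold changes were -0.02 for Mcm6 in place of -0.18, -0.03 for Mcm5 in place of -0.14, -0.12 for Mcm3 in place of -0.21 and -0.17 for Mcm2 in place of -0.26. Without Con 1 and Exe 5, the mice highest in the acute-phase sum, the log2 fold change of Mcm6 was -0.10 in place of -0.18, and that of E2f1 was -0.26.

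Pcna, the clamp that holds polymerases on DNA and also serves repair, was the most abundant of the 35 and, with Tyms, among the least variable. Con mice had 19.3 to 25.7 FPKM (median 24.4) and Exe mice 21.8 to 26.5 (median 25.0). Its coefficients of variation of 10.2% and 7.37% were under the medians of 16.9% and 17.8% over all genes. Pcna gave an exact permutation p of 0.595.

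Of the 3 genes for nucleotide supply, Rrm2 and Tk1 had a higher mean log2 level in Exe group and Tyms a lower one, and none passed the test. Rrm2, the S phase subunit of ribonucleotide reductase, had 1.61 to 3.68 FPKM in Con (median 1.85) and 1.7 to 3.0 in Exe mice (median 2.61), and 5 of 6 Exe mice lay above the Con median. The exact permutation p of Rrm2 was 0.335. Tk1, thymidine kinase, ranged from 13.2 to 19.3 FPKM in Con (median 17.8) and from 10.2 (Exe 5) to 29.5 (Exe 6) in Exe mice (median 17.7). Tyms, thymidylate synthase, had 1.59 ± 0.166 FPKM in Con and 1.57 ± 0.131 in Exe group (SD, n = 6), and the exact permutation p was 0.807.

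All 20 mitotic genes had a lower mean log2 level in Exe group, and 0 of 20 passed the exact permutation test or limma at an unadjusted p of 0.05 in all 12 mice, where limma found 2.02% of all genes above 0 to be lower. They were low: only Ube2c and Birc5 passed the filter. Summed over the 20 genes, Con mice had 6.87 to 14.9 FPKM with a median of 9.53, and Exe mice had 4.71, 2.63, 19.8, 7.75, 7.82 and 4.01 FPKM in Exe 1 to Exe 6. The highest and the lowest of all 12 mice were thus both in Exe group, Exe 3 and Exe 2. The median coefficient of variation of the 20 genes was 34.7% in Con and 77.0% in Exe group. The Exe value includes Exe 3, and a median without that mouse was not taken.

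**Figure D4:**
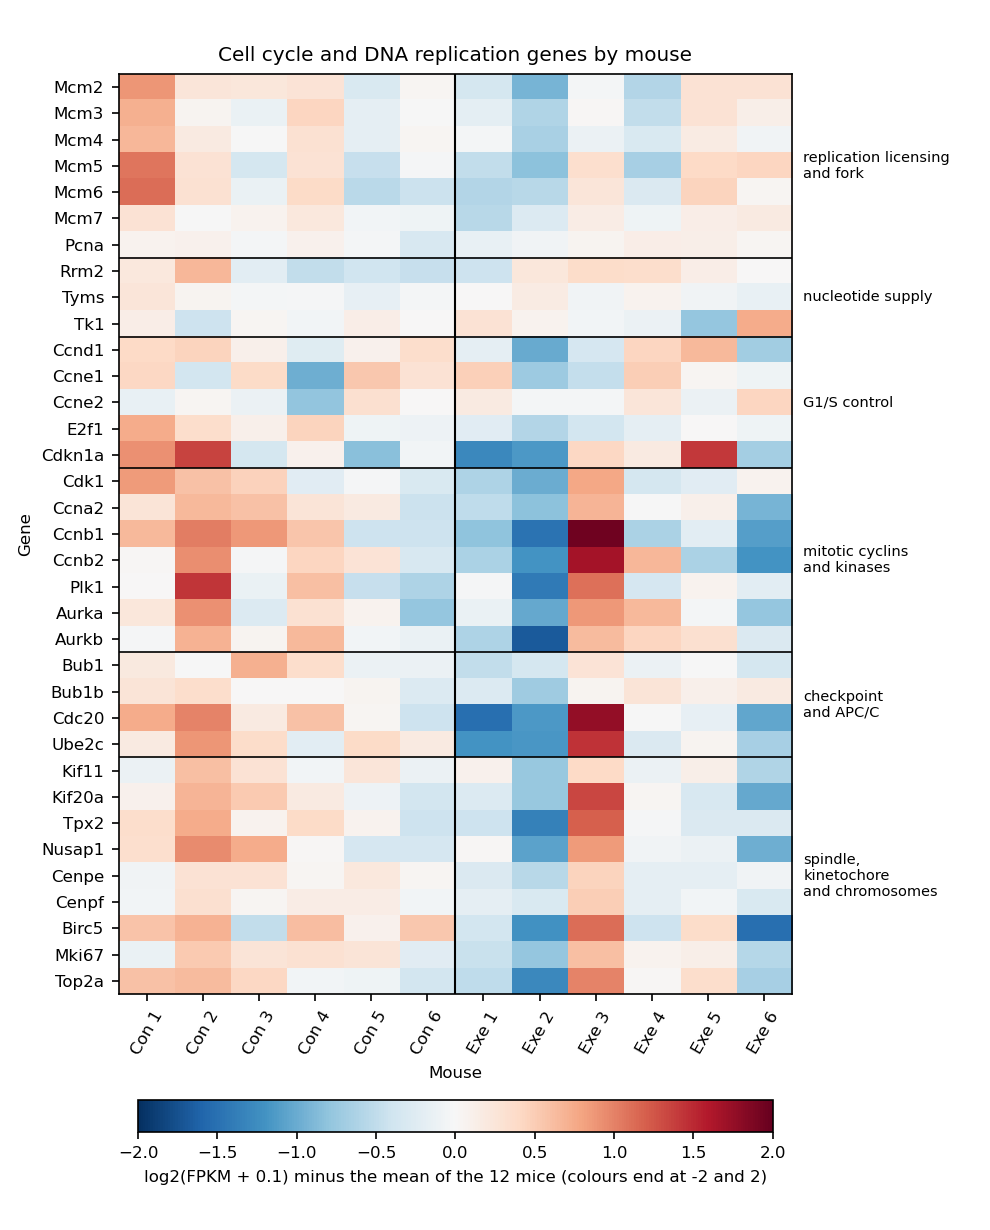
log2(FPKM + 0.1) of each gene (rows, grouped by role) in each mouse (columns), minus the mean of the 12 mice, with red higher and blue lower. Exe 3 and Con 2 are red and Exe 2 blue across most of the 20 mitotic genes, and Con 1 is red across the 6 Mcm genes.

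Exe 3 was the highest Exe mouse in 19 of the 20 mitotic genes (Exe 4 in Bub1b), and it was above every Con mouse in 12 of them. Exe 2 was lowest, or level with the lowest, in 14. Among Con mice, Con 2 was highest or level with the highest in 18, and Con 6 lowest or level with the lowest in 17. The order of mice was different in the replication genes, where Exe 3 was the highest Exe mouse in 0 of 7.

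In the 7 cyclins and kinases of mitosis, Exe 3 was the highest Exe mouse in each, and the highest of all mice in 3. Ccnb1, cyclin B1, the partner that makes Cdk1 active, had 0.11 to 0.47 FPKM in Con mice (median 0.325). In Exe mice it was 0.06, 0, 0.98, 0.08, 0.14 and 0.03 FPKM, so Exe 3 was above all Con mice and 4 of the other Exe mice were below all Con mice. Ccnb2, cyclin B2, had 0.41 to 1.12 FPKM in Con mice (median 0.61) and reached 1.93 in Exe 3, with 0.18 to 0.91 in the other Exe mice. Cdk1, the mitotic kinase itself, had 0.27 to 0.73 FPKM in Con mice (median 0.44) and 0.13 to 0.68 in Exe mice (median 0.275). Ccna2, cyclin A2, which acts in S phase and early mitosis, had medians of 0.51 and 0.335 FPKM and an exact permutation p of 0.136. Plk1, Aurka and Aurkb, kinases of the spindle and of cytokinesis, had Exe means of 0.343, 0.588 and 0.31 FPKM against Con means of 0.437, 0.63 and 0.39.

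Cdc20 and Ube2c serve the anaphase-promoting complex, which marks cyclin B for destruction, Cdc20 as its activator and Ube2c as its ubiquitin-conjugating enzyme. Cdc20 had 0.58 to 1.7 FPKM in Con mice (median 1.10), 2.98 in Exe 3 and 0.22 to 0.8 in the other Exe mice. Ube2c had 1.1 to 2.47 FPKM in Con mice (median 1.58), 3.69 in Exe 3 and 0.51 to 1.35 in the other Exe mice. In both genes all 6 Con mice lay above the Exe median. Bub1 and Bub1b, kinases of the spindle checkpoint, reached at most 0.13 and 0.32 FPKM, and Bub1 was read as 0 in Exe 1, where a step of 0.01 FPKM is the finest the values show.

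Among the genes of the spindle, kinetochore and chromosomes, Birc5, which encodes survivin, was the most abundant, with 0.75 to 1.84 FPKM in Con mice (median 1.67) and 0.32 to 2.51 in Exe mice (median 0.815). 5 of 6 Exe mice lay below the Con median. Mki67, which encodes the proliferation marker Ki-67, had 0.19 to 0.39 FPKM in Con mice (median 0.31) and 0.1 to 0.42 in Exe mice (median 0.205), with an exact permutation p of 0.245. Top2a, which untangles replicated chromosomes, had medians of 0.375 and 0.255 FPKM. The motors Kif11 and Kif20a, the spindle proteins Tpx2 and Nusap1 and the kinetochore proteins Cenpe and Cenpf had Con means of 0.045 to 0.348 FPKM, and in each of them Exe 3 was the highest Exe mouse.

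The number of mitotic genes past the exact test depended on Exe 3. Leaving out each mouse in turn, the exact test at 0.05 found 1 or 2 of the 35 genes without any of the other 11 mice and 11 genes without Exe 3. Over these tests 1.27% (without Exe 1) to 2.61% (without Exe 5) of all genes above 0 were lower in Exe group. The 11 were E2f1 and 10 of the 20 mitotic genes, Ccna2, Ccnb1, Bub1, Cdc20, Ube2c, Kif20a, Tpx2, Cenpe, Cenpf and Birc5, where 1.59% of all genes above 0 were lower in Exe group without Exe 3. None had an adjusted p under 0.05 in limma there, and the lowest was 0.700. Exe 3 was singled out here because its values were high. Leaving out the highest Exe mouse lowers the Exe mean by construction, and where it lies far from the others the Exe spread too. The counts and p-values without Exe 3 are therefore a description and do not test a group difference. No label sets it apart from the other Exe mice.

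Without Exe 3, the ratio of Exe to Con means over the 20 mitotic genes ran from 0.213 (Ccnb1) to 0.876 (Bub1b) with a median of 0.547. Ube2c had a log2 fold change of -0.53 (SE 0.14) without it and -0.31 (SE 0.23) with it, and the exact permutation p went from 0.286 to 0.0108. Cdc20 had a ratio of 0.424 without it, and the exact permutation p went from 0.361 to 0.0195. For Ccnb1 the exact permutation p went from 0.528 to 0.0173. These p-values are a description, since the mouse left out was chosen from the same values.

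Correlations over the 12 mice were tested for 2 pairs of mitotic genes. Mki67 and Ccna2 had r = 0.936 (permutation p = 4e-05, adjusted p = 0.00032) and rho = 0.919, and r was 0.903 without Exe 2 and Exe 3, the mice farthest in Mki67. For Mki67 and Ccna2, r was 0.790 within Con and 0.990 within Exe mice. Mki67 and Top2a had r = 0.835 (permutation p = 0.00082, adjusted p = 0.00219) and rho = 0.806, with 0.679 without Exe 2 and Exe 3, 0.989 within Exe mice and 0.363 within Con mice (exact permutation p = 0.425). Mki67 and the helicase gene Mcm5 had r = 0.201 (permutation p = 0.532) and rho = 0.228, and r was -0.10 without Exe 2 and Exe 3. Ccnd1 and Cdkn1a had r = 0.696 (permutation p = 0.013), with rho = 0.692. Without Exe 2 and Exe 6, the mice farthest in Ccnd1, r was 0.620 (permutation p = 0.0605), so the size was close and the call was lost with 10 mice. These were among 8 relations tested, and adjusted p-values are over the 8.

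Markers of Kupffer cells were high or low in several of the same mice as the mitotic genes. Their sum over 6 markers was 130 to 243 FPKM in Con mice (median 171), and 115, 90.6, 187, 130, 229 and 131 FPKM in Exe 1 to Exe 6. All 6 markers (Clec4f, Vsig4, Adgre1, Timd4, Cd5l and Marco) had a lower mean in Exe group and none was at 0 in any mouse. Con 2 was highest among Con mice and Exe 2 lowest of all in both sums, while Exe 5 was high in Kupffer markers and not in mitotic genes. Neutrophil markers summed to 50.2 FPKM in Exe 3 and 52.0 in Exe 5, with 10.1 to 19.1 in the other Exe mice and 12.8 to 34.9 in Con mice, and the neutrophil marker Ly6g was at most 0.19 FPKM. Markers of erythroid precursors, cells that divide fast, summed to 5.51 to 10.3 FPKM in Con and 5.71 to 11.2 in Exe mice, with 6.8 in Exe 3. A list of 6 red cell markers, with the globins, summed to 235 to 903 FPKM in Con and 400 to 1290 in Exe mice, with 912 in Exe 3. The part of these cells in the levels of the cell cycle genes was not tested.

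**Figure D5:**
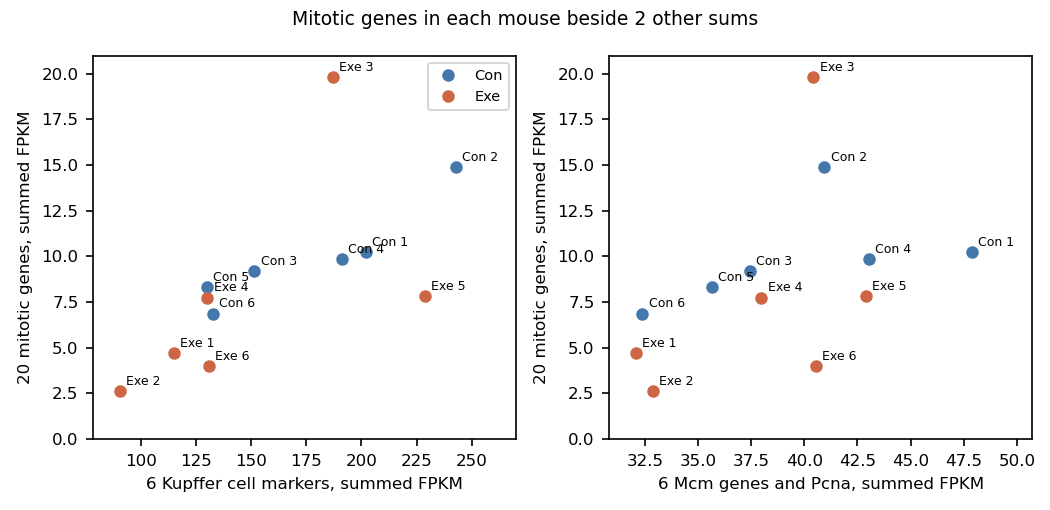
Summed FPKM of the 20 mitotic genes in each mouse (y axis) against summed FPKM of 6 Kupffer cell markers (left) and of the 6 Mcm genes with Pcna (right), with Con in blue and Exe in orange. Exe 3 had the highest mitotic sum, 19.8, and Exe 2 the lowest of both sums on the left, 2.63 and 90.6.

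Genes most like the members were found by Pearson r with the mean log2 level of the 35 over the 12 mice, among filtered genes that are not members. The first 6 were Clec4f (0.936), Folr2 (0.912), Nek2 (0.912), Cd5l (0.902), C1qc (0.894) and Siglec1 (0.888). Nek2 encodes a centrosome kinase, and the other 5 are genes of macrophages, of which Clec4f and Cd5l are also on the Kupffer cell list. Clec4f had 38.3 to 70.7 FPKM in Con mice and 26.0 to 56.5 in Exe mice. These r values were picked as the highest of many and are a description with no test.

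A wider list of 158 other cell cycle genes was closer to all genes in its direction than the 35 were. In it 91 genes were lower and 67 higher in Exe group, and 90 passed the filter. At an unadjusted limma p of 0.05, 7 of the 90 were lower and 2 higher, where 1.94% of all filtered genes were lower and 4.27% higher, and the lowest adjusted p was 0.793. Of 41 genes for origins and the replisome 22 were lower, and 1 passed at the unadjusted p, Rfc5, a subunit of the clamp loader. Of 10 further genes for nucleotides 4 were lower, and 1 of them, not reported here by name, was lower at the unadjusted limma p and by the exact test.

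Among 27 further G1/S genes, Ccnd3, cyclin D3, had a mean of 22 FPKM in Con and 19.1 in Exe group (exact permutation p = 0.0498), and Rbl2, which encodes the DREAM subunit p130, had 6.72 in Con and 7.50 in Exe group (exact permutation p = 0.0173). Rbl2 was thus higher and Lin52, another DREAM subunit on the list of mitotic entry and exit, lower, at 4.20 and 3.46 FPKM (exact permutation p = 0.0606). The kinetochore partners Spc24 and Spc25 went in opposite directions, Spc24 from 8.54 to 10.5 FPKM and Spc25 from 2.62 to 1.83, with exact permutation p-values of 0.0758 and 0.0563.

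Of 16 genes of the p53 response, which Cdkn1a is also known for, 12 were lower in Exe group, where 46.3% of all genes above 0 were lower. By the exact permutation test at 0.05, 4 of the 16 were lower and 0 higher, where 1.62% of all genes above 0 were lower and 3.06% higher. None of the 16 had an adjusted p under 0.05 in limma. Btg2, an antiproliferative gene, had 3.79 to 7.74 FPKM in Con mice (median 5.59) and 2.39 to 5.46 in Exe mice (median 4.02), with a log2 fold change of -0.41 (SE 0.15) and an adjusted limma p of 0.793. Sesn2, a stress-induced inhibitor of mTORC1, had means of 2.49 and 1.89 FPKM. Gadd45g, a growth arrest gene, had 43.3 FPKM in Con 1 and 1.79 to 10.1 in all other mice, and its log2 fold change moved from -0.98 to -0.51 without that mouse.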

How the data were processed

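Liver RNA of 12 mice was sequenced by the authors, who filtered the reads, aligned them with HISAT and deposited FPKM values, rounded to 0.01, for 16821 genes in each mouse. Per the labels, Bowtie2 was also used, and both GRCm39 and mm10 are listed as builds. The tool that made the FPKM is not given in the sources used here. Counts were not used, so no test for counts was run, and the depth in reads is unknown. The only error given is that among the 6 mice in each group. The authors state that outlying samples were excluded by principal component analysis.

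Genes were grouped by role from a list by symbol, with 20 members in 3 mitotic roles. The 35 members, the wider list of 158 genes and the marker lists were chosen by gene function, but with earlier results of these data known. Genes of the wider list are named where the unadjusted limma p was under 0.05 or the absolute log2 fold change over 0.5, and all 35 members are named. A few genes of the wider and marker lists are not reported here, also where this rule would name them. Values were taken as log2(FPKM + 1). Genes with at least 1 FPKM in at least 6 mice (10241) were fitted with limma 3.58.1 (R 4.3.3; lmFit, eBayes with a trend) with group as the only term and Benjamini-Hochberg adjustment, and members under that filter were taken from the same fit over 16804 genes above 0. The fit was tested on simulated data. Single genes were tested with an exact two-sided permutation test over all 924 divisions of the mice. Correlations over 12 mice used 100000 permutations, and those within 6 mice an exact permutation test. Python 3.11.15 with pandas 2.3.3 and scipy 1.17.1 was used. Genes listed at 0 in every mouse were left out of the fits.

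The alternatives were a pseudocount of 0.1, no filter, a stricter filter, quantile normalization, robust variance, the replicate number as a block and each mouse left out in turn. Leaving out the mice highest in acute-phase genes was chosen after seeing the data.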

Additional observations from a re-analysis of the deposited data

Results flagged for a closer look

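In 8 of 70 sets of 6 mice (35 genes in each group), the gap between the highest or the lowest mouse and its neighbour took an unusually large share of the group's range by Dixon's test at the 95% level. For normally distributed values chance gives such a result in about 1 in 20 sets, or 3.5 of 70. The shares were taken on FPKM and not on log2 values, low FPKM need not be so distributed, and the genes are not independent. The count of 8 is therefore a description and no test against 3.5. Of the 8, 6 were Exe 3 in mitotic genes. The share was 0.857 for Ccnb1, 0.790 for Cdc20, 0.736 for Ube2c, 0.734 for Kif20a, 0.690 for Tpx2 and 0.75 for Cenpf. In Con group the 2 sets were Mcm5, where Con 1 was high with a share of 0.634, and Pcna, where Con 6 was low at 19.3 FPKM with a share of 0.659.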

How the results depend on the processing

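Among 1059 values computed again under other settings, 1020 had the same sign and stayed on the same side of the threshold. Of the 1059, 921 were fold changes of 51 named genes, of which 11 changed sign, and none reached an adjusted p of 0.05 in limma, the lowest being 0.489. Fold changes that changed sign when a mouse was left out ranged from -0.13 to 0.032 for Aurka, -0.17 to 0.012 for Ccne1, -0.011 to 0.078 for Pcna, -0.18 to 0.021 for Plk1, -0.086 to 0.20 for Tk1 and -0.034 to 0.020 for Tyms. Tyms was also at 0.028 without Con 1 and Exe 5, the mice highest in acute-phase genes. The count of all genes at an adjusted limma p under 0.05 went from 0 (with 636 at the unadjusted p) to 1 with no filter. At the unadjusted p, leaving out a mouse gave 418 (without Exe 2) to 910 (without Exe 5) of all genes, 1 to 4 members (4 without Exe 5, 3 without Con 5 or Exe 3) and 2 (without Exe 2) to 13 genes of the wider list. These limma counts are of filtered genes, which include 16 of the 35 members. In the fit over all genes above 0 without Exe 3, 13 members were lower at the unadjusted p, 12 of them mitotic, where 1.99% of all genes were lower. Members at the unadjusted p numbered 0 with the stricter filter, which E2f1 did not pass, and 2 without Con 1 and Exe 5. By the exact test the count of members ran from 1 to 11 with a mouse left out. The mean log2 fold change over the 35 was -0.11, and -0.30 with a pseudocount of 0.1, and from -0.17 to -0.068 with a mouse left out.

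Mki67 and Top2a had r = 0.363 within Con mice. Mki67 and Mcm5 had r = -0.10 without Exe 2 and Exe 3 and -0.32 within Con mice. Mcm5 and Mcm6 had r = 0.897 within Exe mice. For Ccnd1 and Cdkn1a, r was 0.620 without Exe 2 and Exe 6, 0.601 within Con and 0.769 within Exe mice, none past the threshold. Cdkn1a and Lcn2, a neutrophil and acute-phase gene, had r = 0.753 over all mice (permutation p = 0.00538, rho = 0.643), and 0.589 without Con 2 and Exe 5, 0.781 within Con and 0.760 within Exe mice, none past the threshold. Mki67 and Ptprc, a leukocyte gene, had r = 0.492 (permutation p = 0.102) and rho = 0.648 (permutation p = 0.0259). The causes of these changes were not tested.

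The replicate numbers name the mice and do not pair them. Deviations of same-numbered mice correlated between -0.48 and 0.16, and with the replicate block limma found 567 genes, 1 member and 10 genes of the wider list at the unadjusted p, and none changed its call at the adjusted p. With 6 mice a group and values to 0.01 FPKM, genes such as Bub1, Cenpe and Cenpf rest on a few steps of the scale.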

Other observations

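By the exact permutation test at 0.05, 8 of the 158 genes of the wider list were lower in Exe group and 1 was higher. Of all genes above 0, 1.62% were lower and 3.06% higher by that test. Some of those under the filter were named after their values were seen. Anln, which encodes anillin, a scaffold of the cleavage furrow, had 0.22 to 0.31 FPKM in Con mice and 0.1 to 0.25 in Exe mice (exact permutation p = 0.00866), and Exe 3 was its highest Exe mouse. Melk, a mitotic kinase, had 0.11 to 0.14 FPKM in Con mice, 0.2 in Exe 3 and 0 to 0.03 in the other Exe mice (exact permutation p = 0.0346). Of the p53 targets, Phlda3 had 0.43 to 1.04 FPKM in Con mice and 0.09 to 0.58 in Exe mice (exact permutation p = 0.0130), and Eda2r had 0.04 to 0.13 and 0 to 0.1 (exact permutation p = 0.0498). None of these 4 had an adjusted p under 0.05 in limma.

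Mki67 and Alas2, the heme synthesis gene of red cell precursors, had r = 0.368 (permutation p = 0.242) and rho = 0.207 over the 12 mice. Pancreatic acinar markers summed to 15.5 FPKM in Exe 5 and 2.74 in Exe 3, and to at most 1.31 in the other mice.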
